A study of Mus musculus with 18 samples.

Results

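Mouse gastruloids given a pulse of CHIR between 24 and 48 h after aggregation (early), collected at 48 h, were compared with gastruloids given the pulse between 48 and 72 h (control), collected at 72 h. Both groups were therefore taken at the end of a 24 h pulse. They hold 3 libraries each, 6 of the 18 in the series, and were chosen by the age and treatment in the labels. Messenger RNA was measured by RNA-seq, and 16041 genes were tested. Cells of 129/SVEV background, wild type, were used throughout, and the gastruloids of a condition were pooled before extraction, so a library is a pool. Untreated gastruloids of 48 h (3 libraries, the controls before their pulse) are given beside some genes as a level without CHIR. Age at collection and start of the pulse differ together between the groups, and their contributions cannot be told apart. Whether replicates stem from independent cultures is not stated in the labels, so the p-values reflect the spread among libraries, which may be technical. That spread was estimated over all 18 libraries of the series. The SE and p-value of a gene therefore also carry its spread within groups not compared here, and a gene can miss the call although the 6 libraries do not overlap.

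Gastruloids are small balls of cultured embryonic stem cells in which germ layers and a body axis arise. CHIR inhibits the kinase GSK3, which otherwise marks β-catenin for destruction. β-catenin then accumulates and, with TCF/LEF factors on DNA, activates Wnt target genes, among them feedback inhibitors and, in the epiblast, genes of the primitive streak such as T and Mixl1. The same inhibition also holds embryonic stem cells in naive pluripotency, the state of the early epiblast, by relieving repression of Esrrb and other naive factors. Cells that leave naive pluripotency pass through a formative and then a primed state, marked by Otx2, Fgf5 and the de novo DNA methyltransferases, and become able to form the streak.

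Levels are in CPM (each library's counts scaled to the same TMM-adjusted total). Differences are log2 fold changes ± SE, early over control, with adjusted p from edgeR's quasi-likelihood test with Benjamini-Hochberg adjustment over all tested genes. A gene was called higher or lower in the early libraries at an adjusted p under 0.05. Total counts of the 6 libraries ranged from 14841728 to 21875204. Control replicate 3 stood apart from replicates 1 and 2, as chi-square over degrees of freedom between their counts came to 17.0 to 20.2, where the other pair of controls gave 5.005 and pairs of early libraries 2.15 to 4.01. The controls numbered 3 of 48 h and 96 h, which enter the fit, stood apart from their groups as well (16.3 to 29.6). Among 13898 genes at or over 1 CPM, control replicate 3 was above both other controls at 5159 and below both at 5275. For several results that moved with this library, values without it are also given.

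Of the tested genes, 4730 were called higher (29.5%) and 5078 lower (31.7%) in the early libraries, 61.1% in all. The 3 early and 3 control libraries did not overlap at 67.1% of genes, 32.6% with the early libraries above and 34.5% below. A difference of 2-fold or more was called for 3214 genes (20.0%), of which 1457 were higher (9.08%) and 1757 lower (11.0%). At 8-fold or more, 312 genes were higher and 121 lower. The median log2 fold change over all genes was -0.022. On log2(FPKM + 1), 2746 genes were called higher and 5743 lower, so 32.3% of the called genes were higher there and 31.9% on log2(FPKM + 0.1), against 48.2% on counts. Direction also went with level. Of 2470 genes with a mean of 100 CPM or more, 1352 were called higher and 369 lower (median 0.15). Counts of list members given for each pathway or cell state are to be read against the shares of all tested genes. Those of genes at high levels are also to be read against this class.

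**Figure D1:**
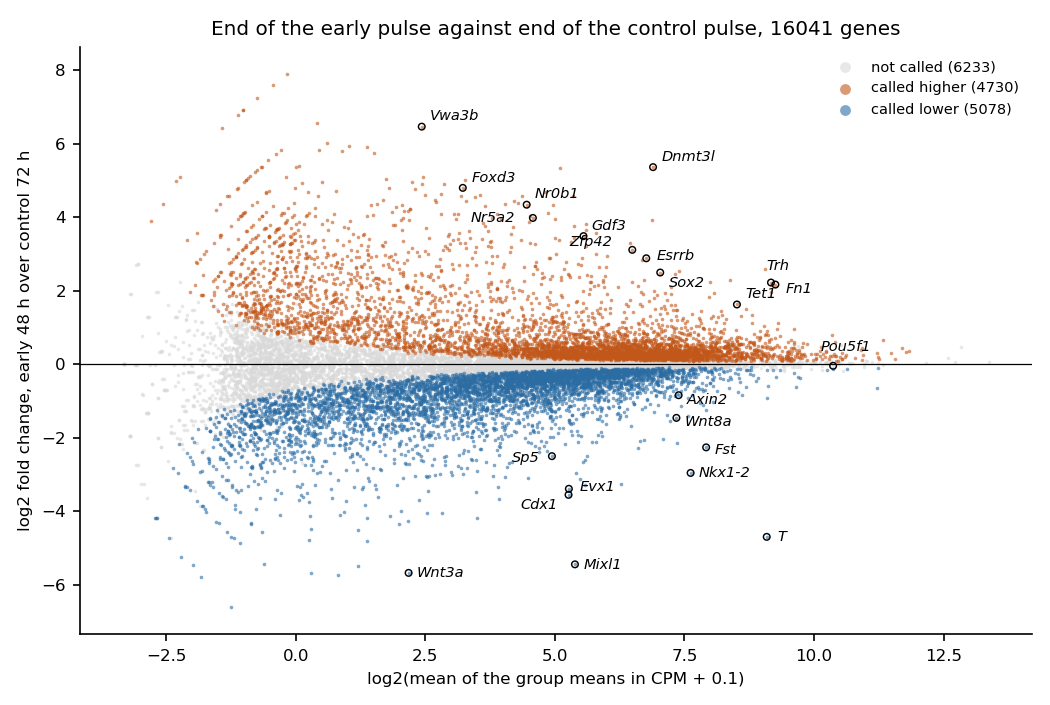
Log2 fold change (early 48 h over control 72 h) of each of 16041 tested genes against the log2 of the mean of both group means in CPM (+ 0.1), with called genes in colour and some genes named below ringed. T lies at -4.69 and Mixl1 at -5.44 on the lower side, Dnmt3l at 5.36 and Foxd3 at 4.80 on the higher side, and Pou5f1 near 0.

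Wnt feedback genes and direct targets are often used as a readout of the pathway, whose activity itself was not measured here. In this list 15 of 18 measured genes were lower in the early libraries (31.7% of all tested genes were), with a median log2 fold change of -0.86 (-0.022 over all genes). Axin2, a scaffold of the complex that destroys β-catenin and a feedback target, was at 119, 116 and 124 CPM in the early libraries, against 215, 233 and 196 CPM in the control libraries, and at 12.7 CPM on average in untreated libraries. The early libraries lay below all controls, 1.79-fold lower in the fit (-0.84 ± 0.06, adjusted p = 1.16e-09). Sp5, a zinc finger repressor induced directly by β-catenin, was at 8.07, 6.75 and 12.9 CPM in the early libraries, against 50.9, 56.3 and 49.0 CPM in the control libraries, and had 0 counts in all 3 untreated libraries. The groups did not overlap, and the difference was larger than for Axin2 on the log2 scale (-2.50 ± 0.15, adjusted p = 7.83e-10). Nkd1, an inhibitor that binds Dishevelled, was at 9.80, 6.68 and 9.15 CPM in the early libraries, against 40.5, 41.1 and 39.0 CPM in the control libraries (-2.22 ± 0.11). Sp8, a relative of Sp5, was at 17.9, 18.3 and 20.6 CPM in the early libraries, against 64.3, 70.4 and 64.8 CPM in the control libraries (-1.81 ± 0.12). Both were lower in every early library than in any control. Every early level of Axin2, Nkd1 and Sp8 was nonetheless above the untreated mean, which was 3.98 CPM for Nkd1 and 2.23 CPM for Sp8. In bulk samples, fewer cells of a type and less RNA per cell cannot be told apart, here and in what follows.

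Not all targets differed to this extent. Tnfrsf19, a Wnt-responsive receptor of the TNF family, averaged 82.1 ± 3.05 CPM in the early and 128 ± 18.1 CPM in the control libraries (SD, n = 3 each; -0.64 ± 0.08), against 4.65 CPM untreated. Znrf3, a ubiquitin ligase that removes Frizzled receptors, differed by -0.32 ± 0.09 and Tcf7, a TCF factor, by -0.59 ± 0.05. Lef1, another of these factors, was at 137, 125 and 147 CPM in the early libraries, against 139, 148 and 165 CPM in the control libraries, and did not pass the test (-0.14 ± 0.10, adjusted p = 0.241). It was called lower with no filter on low counts (adjusted p = 0.0353) and in the fit of the 6 libraries with a replicate block. Ccnd1, a cyclin often used as a Wnt target, was likewise not called (0.079 ± 0.08, adjusted p = 0.385), except without the controls numbered 3 at all ages (adjusted p = 0.014). Fzd10, a Frizzled receptor, was at 39.8, 38.6 and 42.5 CPM in the early libraries, against 139, 160.1 and 208 CPM in the control libraries (-2.06 ± 0.15). Its early levels were still above the untreated mean of 6.71 CPM. Frizzled genes as a family were split, with 5 of 10 tested called lower and 4 higher. Fzd7 went the other way, at 152 CPM on average in the early and 48.8 CPM in the control libraries (1.63, adjusted p = 2.89e-07). Cdx1, a caudal homeobox factor and direct Wnt target, was at 6.62, 5.70 and 5.49 CPM in the early libraries, against 31.3, 49.1 and 132 CPM in the control libraries (-3.55 ± 0.44, and -2.75 without control replicate 3). All controls were above all early libraries, with replicate 3 the highest.

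The promoters of a few of these genes are shown because β-catenin acts through TCF/LEF factors, whose motif has the core CTTTGA. Windows of 300 bases (250 before to 50 after the RefSeq start, build GRCm38.p6) are printed 5′ to 3′ on the gene's strand, with CTTTGA or its reverse complement TCAAAG in capitals. T and Sp5 stand for targets that were much lower in the early libraries, Axin2 for the feedback gene with the smaller difference, and Nr0b1, a naive factor described below, for a gene that was higher. All 4 genes are on the plus strand, at chr17:8434173-8434472 (T, ENSMUSG00000062327.10), chr2:70474673-70474972 (Sp5, ENSMUSG00000075304.2), chr11:108920099-108920398 (Axin2, ENSMUSG00000000142.15) and chrX:86191525-86191824 (Nr0b1, ENSMUSG00000025056.4).
T: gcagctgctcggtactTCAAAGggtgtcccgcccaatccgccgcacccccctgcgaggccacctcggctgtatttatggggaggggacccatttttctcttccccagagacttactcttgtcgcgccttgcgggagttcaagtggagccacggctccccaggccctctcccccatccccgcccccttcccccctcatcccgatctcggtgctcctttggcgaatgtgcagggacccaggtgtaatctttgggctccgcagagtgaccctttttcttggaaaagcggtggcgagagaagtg
Sp5: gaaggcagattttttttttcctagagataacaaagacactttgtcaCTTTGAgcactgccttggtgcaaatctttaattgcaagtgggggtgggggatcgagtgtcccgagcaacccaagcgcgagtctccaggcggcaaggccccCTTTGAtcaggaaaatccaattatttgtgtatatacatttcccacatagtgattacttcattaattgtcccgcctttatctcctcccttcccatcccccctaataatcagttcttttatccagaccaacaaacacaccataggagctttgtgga
Axin2: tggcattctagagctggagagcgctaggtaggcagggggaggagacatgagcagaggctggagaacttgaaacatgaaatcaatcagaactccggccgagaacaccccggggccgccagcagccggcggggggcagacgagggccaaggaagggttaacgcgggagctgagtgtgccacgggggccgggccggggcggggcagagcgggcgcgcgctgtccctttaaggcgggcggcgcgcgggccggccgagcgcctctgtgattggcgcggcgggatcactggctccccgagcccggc
Nr0b1: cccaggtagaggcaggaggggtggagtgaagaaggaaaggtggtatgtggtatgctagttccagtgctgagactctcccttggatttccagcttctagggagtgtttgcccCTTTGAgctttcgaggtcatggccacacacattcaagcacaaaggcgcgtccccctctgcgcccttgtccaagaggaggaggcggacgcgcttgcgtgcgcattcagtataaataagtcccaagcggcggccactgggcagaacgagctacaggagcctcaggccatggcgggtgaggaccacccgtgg

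The T window holds TCAAAG 234 bases before the start, the Sp5 window holds CTTTGA at 204 and 104 bases before it, the Nr0b1 window holds it at 139 bases, and the Axin2 window holds neither. Of all 32851 RefSeq windows of this length, 5257 (16.0%) hold the letters on either strand. Among the Wnt feedback list, 11 of 18 symbols matched the table and 5 of their 19 windows hold them (26.3%). Of the streak list 13 of 16 symbols matched, with 3 of 13 windows (23.1%), and of the naive list 11 of 17, with 1 of 16 windows (6.25%). These letters were the 1 motif searched, and a match is a description of the sequence.

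Wnt ligands were also lower in the early libraries, 7 of the 9 measured in a list of 11 names (median -1.98). Of all 15 Wnt genes tested, counted by symbol after the values were seen, 10 were called lower and 0 higher (median -1.69). Wnt3a, the ligand of the tailbud and posterior streak, was at 0.290, 0.123 and 0.0572 CPM in the early libraries, against 7.51, 10.9 and 7.597 CPM in the control libraries, where untreated libraries averaged 0.135 CPM. It was 50.9-fold lower at the end of the early pulse (-5.67 ± 0.34, adjusted p = 1.29e-10, and -6.51 without early replicate 1), at a level near that of untreated gastruloids. Wnt3, which starts the streak in the embryo, was at 11.98, 11.3 and 14.8 CPM in the early libraries, against 62.7, 53.3 and 33.5 CPM in the control libraries (-1.98 ± 0.21). Wnt8a, a ligand of the posterior epiblast, was at 85.5, 86.9 and 87.4 CPM in the early libraries, against 179, 184 and 352 CPM in the control libraries (-1.46 ± 0.20, and -1.07 without control replicate 3), with untreated libraries at 2.36 CPM. The early libraries were below every control for both, although Wnt8a was far above the untreated mean. Wnt5b (-0.88 ± 0.10) and Wnt11 (-2.201 ± 0.28), ligands tied to cell movement, were lower too. Wnt5a (-0.41 ± 0.33, adjusted p = 0.284) and Wnt2b (-1.69 ± 0.72, adjusted p = 0.0502) were not called, although Wnt2b was called lower without control replicate 3 (-1.93, adjusted p = 0.035).

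Primitive streak and tailbud genes had the lowest medians of the lists. Of 16 streak genes measured, 12 were lower and 1, Mesp2, was higher (median -2.49). T, the brachyury factor of streak and tailbud, was at 39.2, 37.2 and 45.3 CPM in the early libraries, against 1007, 1262 and 872 CPM in the control libraries, and at 0.593 CPM on average untreated. It was 25.8-fold lower in the early libraries (-4.69 ± 0.18, adjusted p = 3.33e-13), with no overlap, and yet above the untreated libraries. Mixl1, a homeobox factor of mesendoderm, was at 2.08, 1.41 and 2.12 CPM in the early libraries, against 89.3, 133 and 22.01 CPM in the control libraries (-5.44 ± 0.64, adjusted p = 8.69e-07). Evx1, of the posterior streak, was at 7.10, 4.66 and 8.35 CPM in the early libraries, against 75.5, 93.9 and 41.2 CPM in the control libraries (-3.38 ± 0.29). Both were lower in all early libraries than in the lowest control, which was replicate 3.

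Eomes, a T-box factor of the early streak and its anterior derivatives, was at 33.8, 35.2 and 37.9 CPM in the early libraries, against 125, 122 and 26.2 CPM in the control libraries. Here control replicate 3 lay below all 3 early libraries and the groups overlapped, while the test still called it lower (-1.37 ± 0.35, adjusted p = 0.00266). It was not called on log2(FPKM + 0.1) (adjusted p = 0.0727). Without control replicate 3, Eomes differed by -1.80 (adjusted p = 4.22e-08). Control replicate 3 was below both other controls at 9 of 14 streak genes at or over 1 CPM, and above them at 3. Apln, the ligand of the apelin receptor, was at 7.92, 9.44 and 9.43 CPM in the early libraries, against 73.1, 103 and 83.8 CPM in the control libraries (-3.28 ± 0.20), and Cdx2, a caudal factor, at 2.99, 2.51 and 3.43 CPM in the early libraries, against 16.5, 19.7 and 37.8 CPM in the control libraries (-3.02 ± 0.30). Among the anterior streak and organizer genes 6 of 14 were lower and 3 higher. Gsc, an organizer factor, was at 0.145, 0.123 and 0.286 CPM in the early libraries, against 5.91, 5.99 and 0.714 CPM in the control libraries (-4.50 ± 0.67), and Foxa2, of anterior streak and endoderm, at 0.821, 0.675 and 1.43 CPM in the early libraries, against 6.71, 7.66 and 4.35 CPM in the control libraries (-2.68 ± 0.36). The 3 higher genes were Otx2 and Gata6, described below, and Trh, which encodes thyrotropin-releasing hormone, at 916, 944 and 984 CPM in the early libraries, against 188, 170.5 and 252 CPM in the control libraries (2.22 ± 0.20, 4.67-fold) and at 51.1 CPM untreated. The list median of -0.23 was 0.33 without control replicate 2 and -0.57 without control replicate 3, where 6 were lower and 2 higher.

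**Figure D2:**
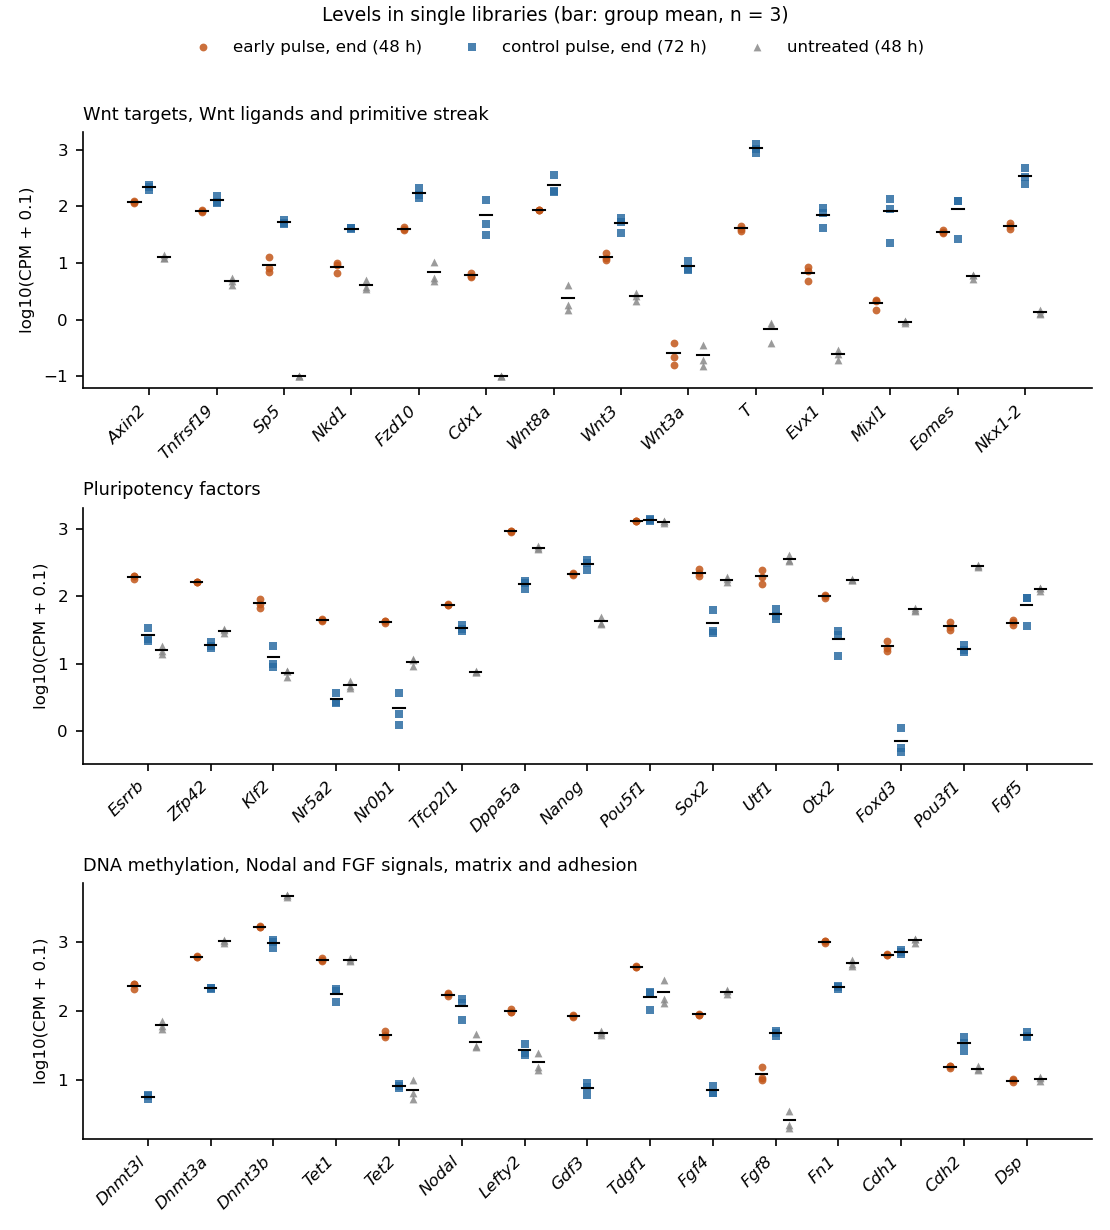
Log10(CPM + 0.1) of selected genes in each library at the end of the early pulse (48 h), at the end of the control pulse (72 h) and in untreated gastruloids (48 h), with group means as bars. T averaged 40.6 CPM in early and 1047 CPM in control libraries, whereas Esrrb averaged 191 and 26.1 CPM.

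Neuromesodermal progenitors of the tailbud make both spinal cord and paraxial mesoderm. Of 15 measured genes of this state 13 were lower in the early libraries and 1, Sox2, was higher (median -2.50). Lists share members, here Wnt3a with the Wnt ligands, T with the streak list and Sp8 with the Wnt targets. Their counts therefore in part repeat each other. Nkx1-2, a homeobox factor of these progenitors, was at 44.9, 39.6 and 50.1 CPM in the early libraries, against 248, 328 and 467 CPM in the control libraries (-2.95 ± 0.17, adjusted p = 9.35e-11). The groups did not overlap, and all early libraries were above the untreated mean of 1.26 CPM. Fgf8, a signal of the streak and tailbud, was at 10.6, 10.1 and 15.5 CPM in the early libraries, against 43.1, 51.0 and 48.05 CPM in the control libraries (-1.98 ± 0.21), and Greb1, a tailbud gene in this list, at 8.11, 8.65 and 9.38 CPM in the early libraries, against 41.8, 40.2 and 45.5 CPM in the control libraries (-2.29 ± 0.15). Sox2, shared by neural and pluripotent cells, was at 218, 195 and 252 CPM in the early libraries, against 28.4, 29.8 and 61.1 CPM in the control libraries (2.49 ± 0.25, adjusted p = 9.02e-08), the opposite direction to T. Of 13 presomitic and somite genes measured, 2 were higher and 3 lower in the main fit, under the shares of all tested genes (29.5% and 31.7%). These counts moved with the setting. With no filter on low counts, 4 were higher and 6 lower, and so without the controls numbered 3 at all ages. The DESeq2 test called 5 lower, and 1 was lower on log2(FPKM + 1). The list median of -0.54 was 0.079 without control replicate 3. Tbx6, which specifies presomitic mesoderm, was at 0.483, 0.613 and 0.514 CPM in the early libraries, against 1.49, 1.98 and 1.30 CPM in the control libraries and was not called (-1.58 ± 0.72, adjusted p = 0.0652), although 7 of the 17 alternative settings called it lower. Tcf15, a factor of somites that primed epiblast cells also use, was at 6.66, 6.26 and 7.77 CPM in the early libraries, against 1.17, 0.989 and 1.82 CPM in the control libraries (2.40 ± 0.22), and Dll3, a Notch ligand of the presomitic mesoderm, at 3.14, 2.39 and 3.32 CPM in the early libraries, against 17.6, 19.7 and 16.2 CPM in the control libraries (-2.59 ± 0.22).

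Hox genes sit in clusters whose order follows the body axis, and the anterior groups 1 to 4 are the earliest to be transcribed. Of 12 measured genes in these groups, 7 were lower in the early libraries (median -2.31), but this rested on 1 library. Hoxb1 was at 16.5, 16.0 and 15.7 CPM in the early libraries, against 18.96, 29.9 and 163 CPM in the control libraries, with a difference of -2.12 ± 0.54 (adjusted p = 0.00252) and of -0.61 without control replicate 3 (adjusted p = 0.0522). The early libraries were below every control, and control replicate 3 was far above the other controls. Hoxb2 was at 2.22, 2.27 and 3.32 CPM in the early libraries, against 2.77, 6.09 and 50.7 CPM in the control libraries (-2.89 ± 0.75, and -0.78 with adjusted p = 0.0712 without that library). The 3 early libraries overlapped with the controls for Hoxb2, and so they did for Hoxa2, which differed by -2.87 ± 0.81, by -1.33 without control replicate 3 (adjusted p = 0.0914) and by -4.13 without early replicate 2.

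Without control replicate 3, 1 of the 12 genes of groups 1 to 4 was lower, and the list median was -0.60. That library was above both other controls at 7 of the 7 genes of these groups with at least 1 CPM. Of 12 measured genes of groups 5 to 9, 0 were called in either direction in the main edgeR fit, where 1 had an unadjusted p under 0.05. The DESeq2 test and edgeR without a filter on low counts each called 2 lower. By contrast, edgeR without the controls numbered 3 at all ages called 2 higher. The list median of -0.43 was 0.48 without control replicate 3. Without control replicate 1 or 2, 1 of these 12 was called lower, as with a replicate block in the fit of all libraries. Hoxa7, of the middle of the HoxA cluster, was at 1.06, 1.29 and 1.09 CPM in the early libraries, against 0.533, 0.521 and 2.66 CPM in the control libraries, and was called higher on log2(FPKM + 1) (adjusted p = 0.00559), where control replicate 3 is listed at 0 although it had the highest CPM. Its control replicate 3 was above, and its other controls below, all early libraries. In groups 10 to 13, 2 genes were measured and 1 was called higher, 2 without early replicate 2 and 0 without control replicate 1. Hoxd13 was at 1.69, 0.859 and 1.66 CPM in the early libraries, against 0.320, 0.781 and 0.909 CPM in the control libraries (1.10 ± 0.34, adjusted p = 0.00874, and 0.75 with adjusted p = 0.0609 without control replicate 1).

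**Figure D3:**
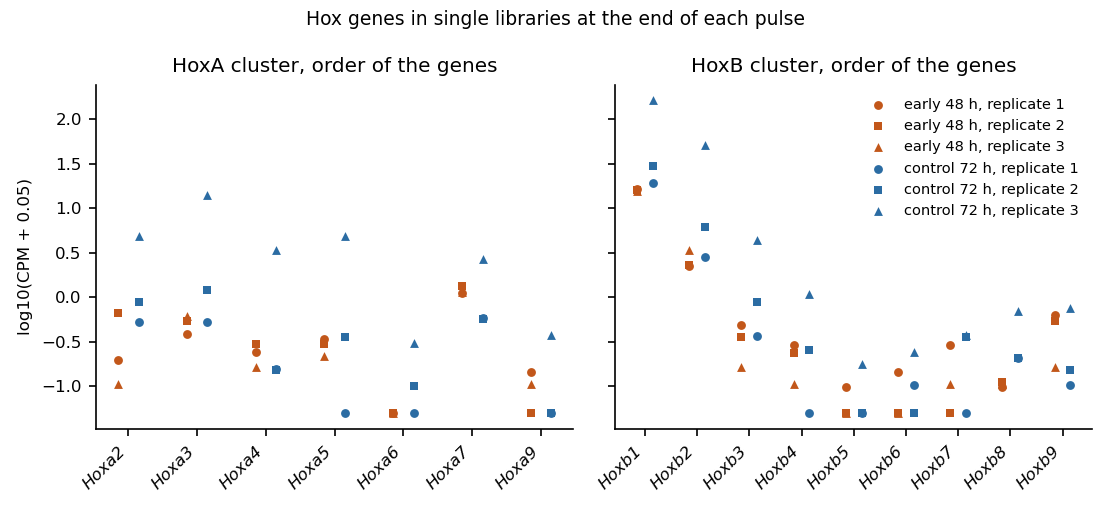
Log10(CPM + 0.05) of HoxA and HoxB genes, in the order of the genes along each cluster, in each early (48 h) and control (72 h) library. Control replicate 3 (blue triangles) stands above all other libraries at Hoxb1 with 163 CPM and at Hoxb2 with 50.7 CPM.

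Of 17 measured naive pluripotency genes, 17 were higher in the early libraries (29.5% of all tested genes were), with a median log2 fold change of 2.89. Esrrb, an orphan nuclear receptor that GSK3 inhibition releases from repression, was at 197, 178 and 198 CPM in the early libraries, against 23.3, 21.7 and 33.2 CPM in the control libraries, and at 15.6 CPM untreated (7.37-fold higher, 2.88 ± 0.11, adjusted p = 5.66e-13). Zfp42, also called Rex1, a classical marker of the naive state, was at 163, 159 and 161 CPM in the early libraries, against 18.2, 17.1 and 20.9 CPM in the control libraries (3.11 ± 0.08, adjusted p = 7.92e-15). The early libraries stood well clear of the controls for both. Nr0b1, a corepressor whose promoter is printed above, was at 42.5, 40.2 and 42.0 CPM in the early libraries, against 1.12, 1.67 and 3.57 CPM in the control libraries (4.34 ± 0.25). Nr5a2, a nuclear receptor that can activate Pou5f1, was at 46.4, 44.5 and 42.9 CPM in the early libraries, against 2.56, 2.50 and 3.51 CPM in the control libraries (3.98 ± 0.15). Klf2, a Krüppel-like factor, was at 77.4, 66.9 and 89.1 CPM in the early libraries, against 8.84, 9.79 and 18.1 CPM in the control libraries (2.69 ± 0.18), and Tbx3, a T-box factor of the naive network, at 26.9, 22.9 and 26.5 CPM in the early libraries, against 4.53, 3.75 and 7.99 CPM in the control libraries (2.25 ± 0.19). The groups did not overlap for any of these 6 genes.

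The differences within the naive list ranged from 0.81 for Klf4 to 4.34 for Nr0b1. Klf4, another Krüppel-like factor, was at 5.26, 3.50 and 5.55 CPM in the early libraries, against 2.13, 2.66 and 3.44 CPM in the control libraries, with early replicate 2 only slightly above the highest control (0.81 ± 0.18, adjusted p = 8.38e-04). Tfcp2l1, which acts with Esrrb in these cells, was at 73.6, 74.5 and 75.2 CPM in the early libraries, against 32.4, 36.9 and 30.5 CPM in the control libraries (1.16 ± 0.08). Its level in controls was above the untreated mean of 7.52 CPM. Fgf4, the signal by which pluripotent cells drive their own exit, was at 91.3, 88.4 and 87.7 CPM in the early libraries, against 6.50, 6.56 and 8.25 CPM in the control libraries (3.66 ± 0.12) and at 191 CPM untreated, above both groups. Dppa5a (906 and 150.2 CPM in early and control libraries, 2.59 ± 0.10) and Spp1, a secreted matrix protein (22.7 and 1.59 CPM, 3.83 ± 0.14), were higher as well. Prdm14 (3.76 and 0.306 CPM, 3.55 ± 0.38) and Tcl1 (5.11 and 0.298 CPM, 4.07 ± 0.27) were low. Control replicate 3 was above both other controls at 12 of the 17 genes and below both at 5. Without it 17 of 17 were called higher, with a median of 3.06.

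General pluripotency factors, which the naive and the primed state share, were higher in 8 of 12 cases and lower in 2 (median 1.06). Pou5f1, the core factor Oct4, was not called, at 1299, 1302 and 1308 CPM in the early libraries, against 1368, 1359 and 1296 CPM in the control libraries (-0.041 ± 0.22, adjusted p = 0.887). The groups overlapped, and untreated libraries averaged 1254 CPM. Its SE also carries the spread of groups not compared, among them the 96 h controls at 473, 425 and 154 CPM. Nanog, of the naive state and the posterior epiblast, was at 210.2, 218 and 204 CPM in the early libraries, against 342, 313 and 242 CPM in the control libraries, lower in every early library (-0.50 ± 0.11, adjusted p = 6.50e-04) and above the untreated mean of 43.0 CPM in both groups. Lin28a, an RNA-binding protein that blocks let-7, was slightly lower (-0.25 ± 0.06). Sox2, the partner of Pou5f1, was higher as given above, at 222 CPM on average, against 39.8 CPM in controls and 175 CPM untreated. Dppa2, a regulator of bivalent chromatin, was at 109, 110.1 and 108 CPM in the early libraries, against 13.7, 12.7 and 26.7 CPM in the control libraries (2.65 ± 0.17), its partner Dppa4 differed by 2.23 ± 0.12, and Zfp296 by 1.80 ± 0.12. Utf1 was at 192, 149 and 247 CPM in the early libraries, against 51.0, 46.0 and 63.4 CPM in the control libraries (1.88 ± 0.15), below the untreated mean of 359.9 CPM in both groups. Trim28, a corepressor of transposons, differed by 0.60 ± 0.04.

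Formative and primed epiblast genes were called in both directions, 9 of 16 higher and 5 lower (median 0.75). Foxd3, a forkhead factor of the transition, was at 16.8, 15.1 and 21.6 CPM in the early libraries, against 1.01, 0.469 and 0.390 CPM in the control libraries, and at 63.5 CPM untreated (27.8-fold higher, 4.80 ± 0.23, adjusted p = 5.60e-12). Otx2, which directs formative enhancers, was at 94.2, 104 and 102 CPM in the early libraries, against 29.9, 26.3 and 12.99 CPM in the control libraries (2.10 ± 0.16) and at 174 CPM untreated. Pou3f1, also called Oct6, was at 35.3, 31.6 and 41.6 CPM in the early libraries, against 18.6, 15.9 and 14.999 CPM in the control libraries (1.13 ± 0.10) and at 281 CPM untreated. For these 3 genes the early libraries stood above all controls and below the untreated mean. Grhl2, a factor of epithelial enhancers, was at 97.6, 95.8 and 104 CPM in the early libraries, against 33.1, 33.7 and 36.3 CPM in the control libraries (1.53 ± 0.08). Fgf5, a marker of the primed epiblast, was at 36.7, 40.7 and 43.5 CPM in the early libraries, against 92.6, 94.8 and 35.9 CPM in the control libraries. Control replicate 3 lay just below all early libraries and the other controls far above (-0.90 ± 0.25, adjusted p = 0.00411, and adjusted p = 0.0748 on log2(FPKM + 0.1)). Without control replicate 3, Fgf5 differed by -1.22 (adjusted p = 9.39e-07). Fst, an activin antagonist, was at 82.1, 82.7 and 86.3 CPM in the early libraries, against 374, 476 and 351 CPM in the control libraries (-2.26 ± 0.20), and Sall2 differed by -0.70 ± 0.14. Control replicate 3 was below both other controls at 12 of the 16 genes of this list and above both at 4.

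DNA methylation is rebuilt as cells leave the naive state, by Dnmt3a and Dnmt3b with their cofactor Dnmt3l, and is removed by way of the Tet dioxygenases. Of 12 genes of these processes 11 were higher and 1 lower (median 0.81). Dnmt3l was at 242, 209.6 and 244 CPM in the early libraries, against 5.75, 5.21 and 6.04 CPM in the control libraries, and at 62.5 CPM untreated. It was 41.0-fold higher (5.36 ± 0.14, adjusted p = 7.92e-15), the third in rank among the 12 largest rises named at the end. Dnmt3a was at 626, 599 and 599 CPM in the early libraries, against 219, 215 and 210.3 CPM in the control libraries (1.503 ± 0.10), with 1012 CPM untreated. Dnmt3b was at 1624, 1701 and 1627 CPM in the early libraries, against 1054, 996 and 803 CPM in the control libraries (0.80 ± 0.07), with 4629 CPM untreated. Both enzymes were thus lower than untreated at the end of either pulse, and lowest in the controls. The maintenance enzyme Dnmt1 (0.36 ± 0.04) and its partner Uhrf1 (0.59 ± 0.05) differed less. Tet1 was at 543, 588 and 524 CPM in the early libraries, against 207, 194 and 135 CPM in the control libraries (1.63 ± 0.13) and Tet2 at 50.6, 44.5 and 41.7 CPM in the early libraries, against 7.62, 8.07 and 8.83 CPM in the control libraries (2.48 ± 0.21). Tet3 was the exception, at 25.4, 24.8 and 26.7 CPM in the early libraries, against 51.0, 52.8 and 39.9 CPM in the control libraries (-0.91 ± 0.12), with every early library below every control.

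Nodal signalling, through a TGFβ-family ligand and its coreceptor, patterns the epiblast and induces mesendoderm. Of 10 measured genes 6 were higher and 2 lower (median 0.39). The ligand Nodal was at 164, 173 and 183 CPM in the early libraries, against 148, 129 and 73.7 CPM in the control libraries (0.56 ± 0.18, adjusted p = 0.0125). The early libraries were above all controls, but the call was lost without control replicate 3 (0.32, adjusted p = 0.0524) and on log2(FPKM + 1) (adjusted p = 0.0941). Its target and inhibitor Lefty2 was at 96.8, 107 and 98.04 CPM in the early libraries, against 23.2, 24.6 and 33.0 CPM in the control libraries (1.91 ± 0.15), and Lefty1, a close relative, at 207, 212 and 207 CPM in the early libraries, against 104, 95.3 and 175 CPM in the control libraries (0.75 ± 0.20). The coreceptor Tdgf1, or Cripto, was at 441, 437 and 429 CPM in the early libraries, against 180.2, 189.7 and 104 CPM in the control libraries (1.46 ± 0.23). Gdf3, a ligand that uses the same receptors, was at 85.6, 89.0 and 83.0 CPM in the early libraries, against 7.99, 6.04 and 9.16 CPM in the control libraries (3.48 ± 0.14, 11.2-fold higher, adjusted p = 8.19e-13). The receptor Acvr1b was slightly lower (-0.38 ± 0.10). Foxh1, the DNA-binding partner of Smad2, was not called (0.071 ± 0.13, adjusted p = 0.65).

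BMP genes were lower in 7 of 15 cases and higher in 3 (median -0.72). Bmp7 was at 4.68, 5.46 and 5.37 CPM in the early libraries, against 17.0, 20.6 and 18.6 CPM in the control libraries (-1.86 ± 0.12), while Bmp4, a ligand that induces posterior mesoderm, was at 5.99, 4.23 and 5.77 CPM in the early libraries, against 3.30, 2.71 and 2.21 CPM in the control libraries (0.96 ± 0.19). The feedback inhibitors were split, with Smad6 at -2.08 ± 0.16 and Smad7 at 1.11 ± 0.08, and the target Id3 at -0.72 ± 0.13. Chrd, an antagonist from the organizer, differed by -1.18 ± 0.18.

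FGF ligands and receptors differed in both directions, 5 of 12 higher and 4 lower, and the list median of 0.31 was -0.30 without early replicate 1 and -0.010 on log2(FPKM + 1), where 3 were higher. Fgf15, a ligand of the early neural plate, was higher (29.0 and 6.81 CPM in early and control libraries, 2.07 ± 0.17), as Fgf4 was. Fgf17, a relative of Fgf8, was lower (-0.89 ± 0.25), as Fgf8 and Fgf5 were. Among receptors Fgfr2 was at 18.4, 16.4 and 14.4 CPM in the early libraries, against 3.89, 3.80 and 4.93 CPM in the control libraries (1.97 ± 0.13) and Fgfr4 at 5.26, 5.21 and 4.74 CPM in the early libraries, against 1.12, 0.989 and 1.04 CPM in the control libraries (2.27 ± 0.24), both higher. Fgfr1, the main receptor of the epiblast, was at 135, 128 and 131 CPM in the early libraries, against 239, 241 and 269 CPM in the control libraries (-0.92 ± 0.15), lower in every early library. Fgfr2 is listed at 0 in every library of the FPKM table. ERK feedback genes were called higher in 6 of 13 cases and lower in 4. Etv5 was higher (613 and 282 CPM, 1.12 ± 0.04), as were Spry1 (0.74 ± 0.10) and Dusp4 (0.49 ± 0.10). Dusp6, a phosphatase of ERK, was lower (66.1 and 147 CPM, -1.16 ± 0.12). Without early replicate 3, without control replicate 1 or on the FPKM scales, 3 of 13 were called higher.

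Notch and segmentation clock genes were lower in 9 of 13 cases and higher in 1 (median -0.98). Without control replicate 1, 5 of 13 were lower. Without control replicate 3, 6 were lower and 2 higher, and on the FPKM scales 0 were higher. Hes1, a target of Notch, was at 14.01, 13.2 and 15.3 CPM in the early libraries, against 34.1, 29.5 and 27.3 CPM in the control libraries (-1.10 ± 0.12), and Nrarp, a feedback inhibitor, at 2.66, 3.50 and 4.06 CPM in the early libraries, against 12.1, 11.0 and 9.35 CPM in the control libraries (-1.68 ± 0.16). Jag1, a ligand, was slightly higher (0.46 ± 0.12), which was not called on log2(FPKM + 1) (adjusted p = 0.134). Hes5 and Hes7, transcription factors of neural progenitors and of the clock, were at or under 1 CPM in all 6 libraries. Retinoic acid genes were called in both directions, 3 of 10 higher and 4 lower, near the shares of all tested genes (29.5% and 31.7%). Rara (75.6 and 39.3 CPM in early and control libraries, 0.95 ± 0.11) and Rarg (201 and 118 CPM, 0.77 ± 0.16), receptors for retinoic acid, were higher. Crabp2, which carries it to the nucleus, was at 7.196, 8.03 and 7.66 CPM in the early libraries, against 15.1, 15.9 and 23.2 CPM in the control libraries (-1.23 ± 0.16), and Rdh10, of its synthesis, differed by -0.68 ± 0.12. Aldh1a2, the enzyme that makes it in mesoderm, was at 2.46, 1.96 and 2.17 CPM in the early libraries, against 1.07, 0.937 and 1.17 CPM in the control libraries. Its groups did not overlap, but it was not called in the fit of all libraries (1.07 ± 1.29, adjusted p = 0.488) and was called higher in the fit of the 6 alone (adjusted p = 0.00123). The list median of -0.67 was 0.48 without control replicate 3.

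**Figure D4:**
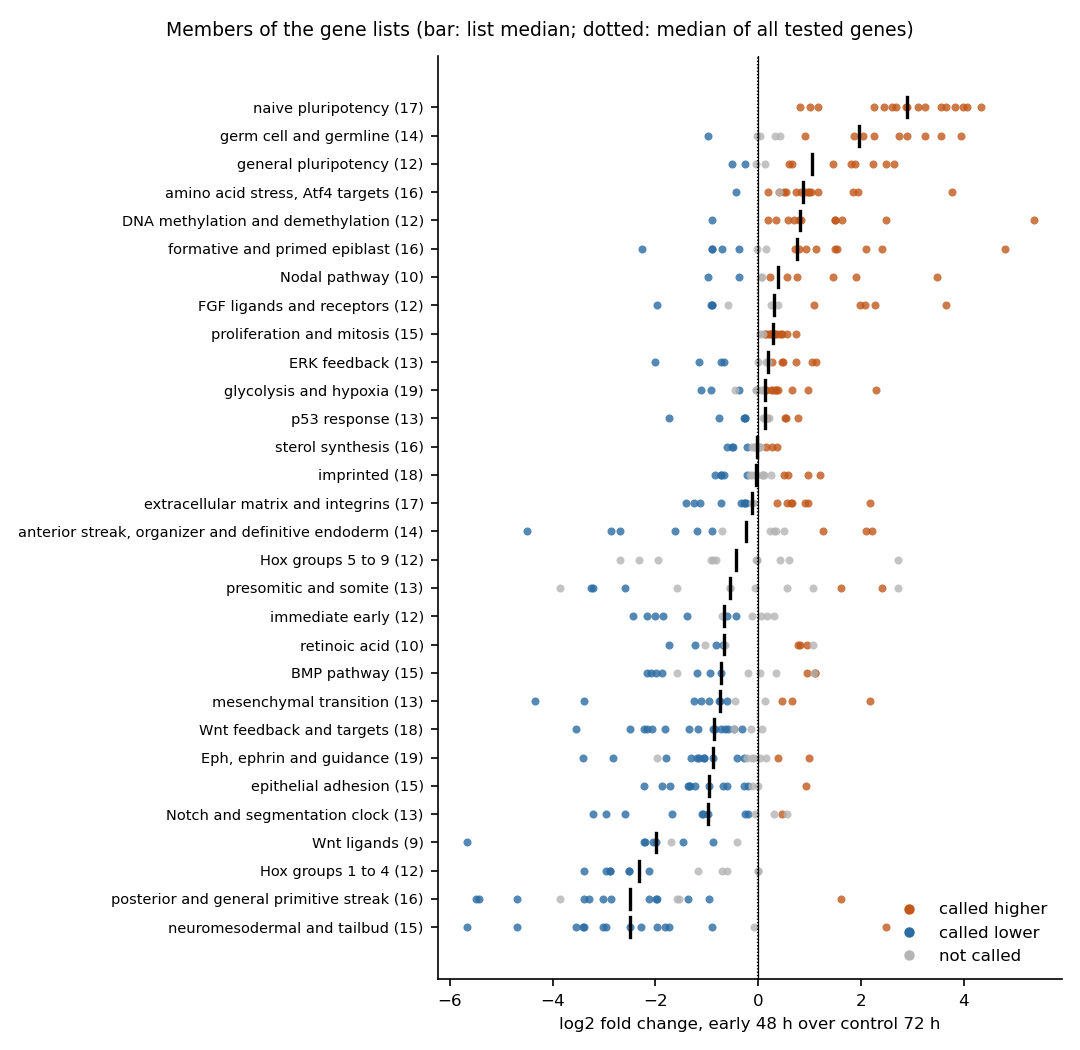
Log2 fold change (early 48 h over control 72 h) of each measured member of 30 gene lists, ordered by list median (black bar), with the number of measured members in brackets. Naive pluripotency genes all lie above 0 with a median of 2.89, and tailbud and streak genes lie at the other end with medians of -2.50 and -2.49.

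Epithelial and mesenchymal genes did not part into opposite directions. Of 15 epithelial adhesion genes, 12 were lower in the early libraries and 1 higher (median -0.95), and of 13 genes of the mesenchymal transition 8 were lower and 3 higher (median -0.75). Cdh1, or E-cadherin, was at 636, 665 and 655 CPM in the early libraries, against 712, 749.5 and 676 CPM in the control libraries and not called (-0.13 ± 0.16, adjusted p = 0.501), although 4 of the 17 alternative settings, among them the fit of the 6 libraries alone (adjusted p = 0.0252), called it lower. Dsp, a desmosome protein, was at 9.90, 10.4 and 9.20 CPM in the early libraries, against 42.7, 49.9 and 43.9 CPM in the control libraries (-2.21 ± 0.10), the tight junction protein Cldn7 at 11.2, 12.4 and 11.5 CPM in the early libraries, against 44.0, 37.0 and 34.1 CPM in the control libraries (-1.72 ± 0.13), and Cldn6 differed by -0.95 ± 0.08. Cldn4, of the same family, was higher (27.3 and 14.2 CPM in early and control libraries, 0.94 ± 0.17). Cdh2, or N-cadherin, was at 14.9, 16.1 and 16.2 CPM in the early libraries, against 26.0, 34.3 and 41.6 CPM in the control libraries (-1.11 ± 0.12), and Zeb2, a repressor of Cdh1, at 8.26, 10.6 and 7.603 CPM in the early libraries, against 18.5, 20.9 and 22.9 CPM in the control libraries (-1.24 ± 0.12). Snai1, which starts the transition in the streak, was at 7.49, 7.05 and 9.03 CPM in the early libraries, against 16.8, 16.1 and 12.5 CPM in the control libraries (-0.95 ± 0.23). Every early library was below every control for Dsp, Cldn7, Cdh2, Zeb2 and Snai1.

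Matrix and integrin genes were split, 7 of 17 higher and 8 lower (median -0.13). Fn1, fibronectin, was at 1024, 1022 and 950.1 CPM in the early libraries, against 226, 230.5 and 211 CPM in the control libraries, 4.49-fold higher (2.17 ± 0.25, adjusted p = 5.60e-07) and above the untreated mean of 489 CPM. Its receptor subunit Itga5 was higher (0.66 ± 0.10), and so were the basement membrane proteins Nid2 (333 and 169.7 CPM in early and control libraries, 0.97 ± 0.07) and Lamc1 (0.57 ± 0.05). The collagen IV chains Col4a1 (43.7 and 96.1 CPM, -1.13 ± 0.08) and Col4a2 (16.3 and 43.4 CPM, -1.40 ± 0.09), whose genes share a promoter region, were lower. Itgb5 (-1.26 ± 0.11) and Itgb1 (-0.25 ± 0.05) were lower to different extents.

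Eph receptors, ephrins and guidance genes, which sort and steer cells, were lower in 11 of 19 cases and higher in 2 (median -0.87). Without control replicate 3, 8 were lower and 3 higher. Epha1 was at 138, 146 and 152 CPM in the early libraries, against 307, 334 and 261 CPM in the control libraries (-1.05 ± 0.08), Ephb2 at 12.6, 12.4 and 12.2 CPM in the early libraries, against 31.4, 32.2 and 28.4 CPM in the control libraries (-1.31 ± 0.11), and the ligand Efna5 at 2.17, 2.76 and 2.23 CPM in the early libraries, against 9.59, 8.18 and 6.95 CPM in the control libraries (-1.80 ± 0.14). Ephb3 went the other way, at 29.5, 25.9 and 26.5 CPM in the early libraries, against 13.2, 13.96 and 14.3 CPM in the control libraries (0.98 ± 0.09). Efnb2, a ligand of B-class receptors, was slightly higher (0.38 ± 0.12) and not called on log2(FPKM + 1) (adjusted p = 0.178). Efnb1, named after its values were seen, was at 2.41, 2.33 and 2.40 CPM in the early libraries, against 7.14, 11.2 and 33.2 CPM in the control libraries (-2.82 ± 0.41, and -1.94 without control replicate 3).

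Germ cell and germline genes, many of them silenced by promoter methylation in somatic cells, were higher in 9 of 14 cases and lower in 1 (median 1.96). Dazl, an RNA-binding protein of germ cells, was at 17.7, 19.3 and 18.5 CPM in the early libraries, against 2.24, 2.14 and 3.18 CPM in the control libraries (2.89 ± 0.15). Tdrd12, of the piRNA pathway, was at 76.0, 82.9 and 69.2 CPM in the early libraries, against 11.5, 9.48 and 13.5 CPM in the control libraries (2.73 ± 0.15), Sohlh2 at 13.6, 18.1 and 15.7 CPM in the early libraries, against 1.07, 0.469 and 1.62 CPM in the control libraries (3.94 ± 0.25), and Mael differed by 2.04 ± 0.16. For these genes every early library was above every control, and untreated means were 14.2, 44.5, 11.5 and 23.3 CPM. Kit, a receptor of germ and other progenitor cells, was at 26.2, 26.1 and 26.2 CPM in the early libraries, against 51.7, 55.6 and 46.8 CPM in the control libraries (-0.97 ± 0.10). Ddx4, a helicase of later germ cells, was at 17.2, 18.03 and 17.7 CPM in the early libraries, against 15.7, 13.9 and 22.3 CPM in the control libraries and not called (0.038 ± 0.13, adjusted p = 0.823).

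Genes that answer amino acid shortage through the factor Atf4 were higher in 14 of 16 cases (median 0.87). Nupr1, a small stress-induced chromatin protein, was at 24.2, 23.8 and 21.8 CPM in the early libraries, against 1.598, 1.87 and 1.62 CPM in the control libraries (3.77 ± 0.24, adjusted p = 2.40e-10), and Trib3, a feedback inhibitor of the response, at 45.4, 43.7 and 45.2 CPM in the early libraries, against 15.4, 12.3 and 9.48 CPM in the control libraries (1.84 ± 0.13). Shmt2, of mitochondrial serine use (296 and 145 CPM in early and control libraries, 1.03 ± 0.07), and Slc3a2, a subunit of amino acid transporters (331 and 187 CPM, 0.83 ± 0.05), differed by smaller amounts. Control replicate 3 was below both other controls at 11 of the 16 genes and above both at 1, and without it 14 of 16 were called higher. Atf3, the 1 gene called lower (-0.43 ± 0.18, adjusted p = 0.0429), lost its call without early replicate 1 or 2 or control replicate 2 or 3 (adjusted p = 0.137, 0.122, 0.0617 and 0.157).

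Proliferation genes were higher in 13 of 15 cases, by small amounts (median 0.30). Mcm2, a subunit of the replicative helicase, was at 683, 691 and 678 CPM in the early libraries, against 491, 509 and 511 CPM in the control libraries (0.44 ± 0.04), and Ccne1, the cyclin of S-phase entry, at 197, 206 and 201 CPM in the early libraries, against 119, 122 and 124 CPM in the control libraries (0.73 ± 0.04). Mki67, a general marker of cycling cells, was not called (0.038 ± 0.08, adjusted p = 0.699). Glycolysis and hypoxia genes were higher in 10 of 19 cases and lower in 3, and their median of 0.14 was -0.012 on log2(FPKM + 1). Over all genes at 100 CPM or more, 1352 of 2470 were higher and 369 lower, with a median of 0.15. Pfkp, a phosphofructokinase, was at 177, 170.2 and 175 CPM in the early libraries, against 36.9, 34.5 and 35.9 CPM in the control libraries (2.28 ± 0.06, adjusted p = 8.27e-15), with little spread within either group. Slc2a1, the glucose transporter Glut1, was at 108, 105 and 113 CPM in the early libraries, against 190.1, 188 and 332 CPM in the control libraries (-1.12 ± 0.18, and -0.80 without control replicate 3). Gapdh (0.34 ± 0.04) and Pkm (0.30 ± 0.04) were higher by less. On log2(FPKM + 0.1), 6 of the 19 were called higher. Without control replicate 2, 1 of the 19 was lower, and Ndrg1, a stress gene (-0.92 ± 0.29), lost its call (adjusted p = 0.118).

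Targets of p53 were called in both directions, 4 of 13 higher and 5 lower (median 0.13, and -0.030 on log2(FPKM + 1)). These counts are near the shares of all tested genes, 29.5% higher and 31.7% lower. The main counts of sterol and imprinted genes given below lie under both shares. Cdkn1a, the cell cycle inhibitor p21, was at 272, 281 and 275 CPM in the early libraries, against 449.8, 457 and 494 CPM in the control libraries (-0.76 ± 0.06), with 59.9 CPM untreated. Mdm2, the ubiquitin ligase of p53, was at 180.0, 175 and 182 CPM in the early libraries, against 125, 117 and 131 CPM in the control libraries (0.53 ± 0.05), Bax, which permeabilizes mitochondria, differed by 0.54 ± 0.05, and Perp, of desmosomes and apoptosis, by -1.73 ± 0.16. Without early replicate 1 or control replicate 3, 3 of 13 were lower. Immediate early genes were lower in 7 of 12 cases (median -0.66), 4 of 12 were lower without early replicate 1 or 2, and 2 were higher without early replicate 2. Jun was at 1.64, 1.47 and 1.66 CPM in the early libraries, against 9.0005, 8.33 and 8.44 CPM in the control libraries (-2.43 ± 0.15) and Egr1 at 8.02, 4.42 and 5.09 CPM in the early libraries, against 20.1, 23.4 and 27.8 CPM in the control libraries (-2.004 ± 0.21). Sterol synthesis genes were split, 3 of 16 higher and 4 lower, by at most 0.60 in either direction on the log2 scale, as with Insig1 (0.36 ± 0.07) and Sc5d (-0.51 ± 0.06). On log2(FPKM + 1), 1 of the 16 was higher and 11 were lower, and the median of -0.028 was 0.027 without control replicate 2. Imprinted genes were higher in 4 of 18 cases and lower in 5, with Peg10 at 0.57 ± 0.09 and Peg3 at -0.84 ± 0.26, and 3 were lower without early replicate 2 or 3 or control replicate 1 or 3. Their median of -0.04 was 0.024 without early replicate 2, 0.0040 without early replicate 3 and 0.035 without control replicate 3.

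Markers of other cell types were counted and summed in each library. Their counts, here and in the next paragraph, stand beside 29.5% called higher and 31.7% lower over all tested genes. Those of extraembryonic endoderm, cardiac and neural markers lie near or under these shares. Of 12 extraembryonic endoderm markers, 11 were measured, 1 was higher and 2 lower, and their summed level was 17.2 to 47.0 CPM in the early libraries and 17.9 to 34.3 CPM in the control libraries. Afp was not among the genes tested and Ttr, a secreted carrier made by visceral endoderm, was at 0 in all early libraries and at or under 0.26 CPM in controls. Early replicate 2 stood apart here, at a sum of 17.2 CPM, where early replicates 1 and 3 were at 47.0 and 43.3 CPM. Gata6, a factor of endoderm, was at 2.90, 0.736 and 2.52 CPM in the early libraries, against 1.07, 1.09 and 0.390 CPM in the control libraries (1.25 ± 0.47, adjusted p = 0.0282), and its call was lost without early replicate 1 or 3 or control replicate 3 (adjusted p = 0.158, 0.0879 and 0.106). Cubn, an endocytic receptor of visceral endoderm, was at 25.0, 7.85 and 20.8 CPM in the early libraries, against 10.8, 14.6 and 2.99 CPM in the control libraries. Without early replicate 2, 4 of these markers were higher, 0 without early replicate 1 or 3 or control replicate 3, and 2 without control replicate 2. Leaving out any 1 of the 6 libraries brought the lower ones to 0 or 1. Of 11 trophoblast markers 5 were measured, 2 higher and 2 lower, with a sum of 7.05 to 8.52 CPM in the early libraries and 4.79 to 6.95 CPM in the control libraries, and Elf5, Gata3 and Tpbpa were not among the genes tested. Leaving out a library other than control replicate 2 brought the lower ones to 0 or 1. Of 9 fibroblast and feeder markers 5 were measured, 1 higher and 3 lower, with a sum of 9.18 to 12.8 CPM in the early libraries and 15.1 to 19.9 CPM in the control libraries, and Col3a1, Lum and Postn were not among the genes tested. The 1 higher call was lost without any 1 library other than early replicate 3. Cardiac mesoderm markers were measured in 7 of 11 cases, 1 higher and 2 lower, with a sum of 11.4 to 13.96 CPM in the early libraries and 11.6 to 13.4 CPM in the control libraries, and Nkx2-5, Tbx5 and Tnnt2 were not among the genes tested. Of the lower ones 1 was left without early replicate 1 or 2 or control replicate 1 or 3.

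Endothelium and blood markers were measured in 11 of 14 cases, 5 higher and 1 lower, with a sum of 96.2 to 101 CPM in the early libraries and 30.7 to 38.2 CPM in the control libraries. Most of that sum in the early libraries was Pecam1, an adhesion molecule that embryonic stem cells also carry, at 77.3, 77.7 and 71.9 CPM in the early libraries, against 5.96, 5.05 and 10.4 CPM in the control libraries (3.43 ± 0.20). Cdh5, a defining marker of endothelium, was not among the genes tested, and Kdr, the VEGF receptor of mesoderm and endothelium, was at 1.55, 1.35 and 1.601 CPM in the early libraries, against 0.639, 0.781 and 0.195 CPM in the control libraries (1.42 ± 0.35). Lmo2, a factor of blood progenitors, was at 1.59, 1.66 and 1.49 CPM in the early libraries, against 9.32, 12.03 and 10.6 CPM in the control libraries (-2.75 ± 0.27). Without early replicate 1 or control replicate 3, 3 of these markers were higher. Neural markers were measured in 10 of 12 cases, 3 higher and 2 lower, with a sum of 66.9 to 69.5 CPM in the early libraries and 105 to 120.1 CPM in the control libraries. Without early replicate 1 or 2 or control replicate 3, 1 was lower. Nes, an intermediate filament of progenitors, was at 18.9, 20.4 and 20.4 CPM in the early libraries, against 80.7, 94.3 and 80.6 CPM in the control libraries (-2.10 ± 0.16), Tubb3, a tubulin, at 31.0, 30.2 and 29.7 CPM in the early libraries, against 10.5, 9.89 and 10.5 CPM in the control libraries (1.56 ± 0.13), and Pax6, a factor of neural cells and eye, at 2.56, 3.005 and 2.57 CPM in the early libraries, against 0.320, 0.104 and 0.649 CPM in the control libraries (2.97 ± 0.39, and 3.64 without control replicate 3). Sox1, an early neural factor, was at or under 1.36 CPM in all 6 libraries and not called. Genes of the rare state that resembles the cleavage-stage embryo were measured in 5 of 10 cases, 4 higher, with a sum of 5.95 to 6.75 CPM in the early libraries and 1.04 to 2.53 CPM in the control libraries. They belong to families of near-identical copies, among which reads may be split, so single members such as Zscan4d (2.40 ± 0.48) are uncertain. The part that any of these cell types had in the differences above was not tested.

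The 12 largest rises among called genes with at least 5 CPM in either group and no overlap between the libraries were Vwa3b, Apol6, Dnmt3l, Ttn, Accsl, Fam25c, Aire, Foxd3, Gpa33, Phf11d, Spn and Rpl39l, between 4.59 and 6.46. Vwa3b was at 10.5, 10.8 and 10.1 CPM in the early libraries, against 0.213, 0.0521 and 0.0649 CPM in the control libraries (6.46 ± 0.39, and 7.34 without control replicate 1). Ttn, the giant sarcomere protein, was at 48.8, 94.99 and 56.3 CPM in the early libraries, against 2.29, 1.51 and 1.04 CPM in the control libraries (5.34 ± 0.34), with early replicate 2 above the other early libraries. Gpa33, a surface glycoprotein, was at 54.9, 52.1 and 54.3 CPM in the early libraries, against 1.49, 1.56 and 3.44 CPM in the control libraries (4.67 ± 0.28), and Spn, the leukocyte surface protein CD43, at 22.4, 23.2 and 21.4 CPM in the early libraries, against 1.07, 0.833 and 0.844 CPM in the control libraries (4.60 ± 0.42). Aire, a transcriptional regulator known from the thymus, was at 14.9, 11.5 and 14.9 CPM in the early libraries, against 0.373, 0.312 and 0.714 CPM in the control libraries (4.91 ± 0.37) and is listed at 0 in every library of the FPKM table. Phf11d differed by 4.62 ± 0.38, and by 5.36 without control replicate 3. In the controls all of these but Dnmt3l were at or under 3.44 CPM.

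Among the 12 largest falls by the same rule were Wnt3a, Mixl1, T, Pcdh7, Cpxm2, Zfp703, Antxr2, Cplx2, Pknox2, Tshz1 and Evx1os, between -5.67 and -3.66. Pcdh7, a protocadherin, was at 0.435, 0.429 and 0.229 CPM in the early libraries, against 7.83, 10.6 and 3.77 CPM in the control libraries (-4.33 ± 0.40), Zfp703, a zinc finger repressor, at 0.821, 1.17 and 1.49 CPM in the early libraries, against 12.6, 14.1 and 36.7 CPM in the control libraries (-4.18 ± 0.42, and -3.55 without control replicate 3), and Tshz1, a teashirt factor, at 0.483, 0.307 and 0.572 CPM in the early libraries, against 4.79, 5.73 and 11.9 CPM in the control libraries (-3.98 ± 0.44). Cplx2, a regulator of vesicle fusion, was at 0.676, 0.675 and 0.572 CPM in the early libraries, against 9.80, 12.4 and 10.1 CPM in the control libraries (-4.05 ± 0.37) and Pknox2, a homeobox factor, at 0.676, 0.920 and 0.800 CPM in the early libraries, against 10.9, 13.4 and 14.999 CPM in the control libraries (-4.04 ± 0.25). Antxr2, an anthrax toxin receptor that binds matrix, differed by -4.13 ± 0.30 and by -4.74 without early replicate 1. Evx1os, transcribed from the opposite strand beside Evx1, was at 2.17, 2.27 and 2.23 CPM in the early libraries, against 28.2, 35.5 and 20.2 CPM in the control libraries (-3.66 ± 0.25). The strand setting of the counting is not given in the sources used here, so reads of Evx1 and Evx1os may not be fully separate.

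The later libraries of both arms place these levels in time, and are given as values. T averaged 40.6, 24.7 and 553 CPM at 48, 72 and 96 h in the early arm, and 0.593, 1047 and 624 CPM in the control arm. The highest mean of the early arm was at 96 h and that of the control arm at 72 h. Eomes averaged 35.6, 41.9 and 174 CPM in the early arm and 5.76, 91.3 and 2.45 CPM in the control arm. Wnt3a stayed at 1.80 CPM or less in the early arm through 96 h, where the controls reached 136 CPM. Esrrb averaged 191, 60.2 and 36.6 CPM in the early arm, and 15.6, 26.1 and 8.34 CPM in the control arm. Nodal, for its part, lay between 173 and 198 CPM at all 3 ages of the early arm, against 36.1, 117 and 8.37 CPM in the control arm.

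**Figure D5:**
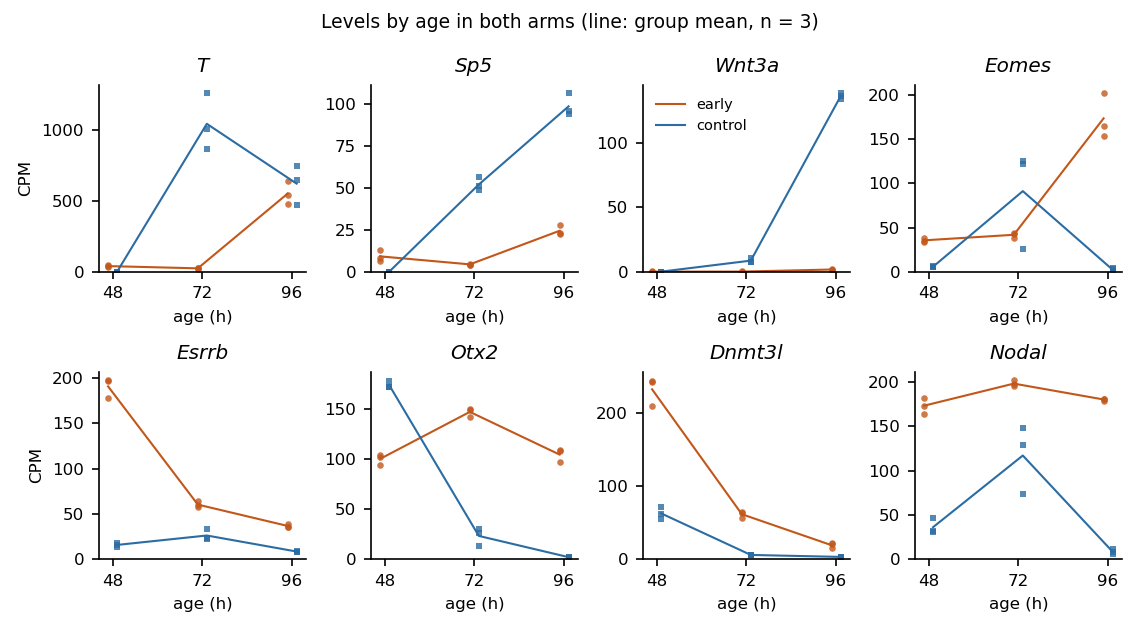
Level in CPM against age in h of 8 genes in the early and the control arm, with points for libraries and lines through group means. The early pulse ended at 48 h and the control pulse at 72 h, and at those ages Dnmt3l averaged 232 CPM in early and 5.67 CPM in control libraries.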

How the data were processed

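RNA of pooled, washed and snap-frozen gastruloids was extracted with on-column DNase treatment and made into stranded mRNA libraries, per the labels' protocols, which name 2 library preparations without assigning them to libraries. The submitters' processing notes name cutadapt 4.0, STAR 2.7.8a, Cufflinks 2.2.1 and mm10. The strand setting of the counting is not given in the sources used here. The values tested are the authors' deposited gene counts, without normalization. The authors' deposited FPKM values were an alternative.

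Members and gene lists were chosen with earlier results of these data known. Counts of all 18 libraries (14841728 to 24536538 per library) were filtered with filterByExpr (16041 of 55385 genes kept), scaled by TMM and fitted with edgeR 4.0.16 (R 4.3.3, glmQLFit and glmQLFTest), 1 coefficient per group, early 48 h minus control 72 h, adjusted over all tested genes. SE is the fold change over the square root of F. Other settings were size factors and the Wald test of DESeq2 1.42.0, other filters, only the 6 libraries, a replicate block, limma-trend (limma 3.58.1) on log2(FPKM + 1) and log2(FPKM + 0.1), and leaving out libraries.

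The text names genes by a rule, which takes the 12 largest rises and the 12 largest falls, up to 4 members per list with the lowest adjusted p that moved with the list and 2 against it, and a panel given whatever its result. Aldh1a2, Ccnd1, Cubn, Ddx4, Dnmt1, Efnb1, Foxh1, Fzd7, Fzd10, Greb1, Hoxa7, Klf2, Mki67, Nr0b1, Nr5a2, Prdm14, Snai1, Tcf7, Tcl1, Tet2, Tnfrsf19, Uhrf1, Utf1, Wnt2b, Wnt5a and Znrf3 fall outside it and were chosen after their values were seen. Results of a few genes that the rule takes are not reported here. Promoter windows are from RefSeq (GRCm38.p6). Python 3.11.15 made tables and figures, with pandas 2.3.3 and matplotlib 3.10.9.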

Additional observations from a re-analysis of the deposited data

How the results depend on the processing

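Across 17 alternative settings, the main counts of 4730 genes higher, 5078 lower and 3214 with a 2-fold difference moved by more than 1.5 times only on the FPKM scales. Genes called higher were 2746 on log2(FPKM + 1), 2739 on log2(FPKM + 0.1) and 2910 on log2(FPKM + 1) with all genes, and 2-fold differences were 925 on log2(FPKM + 1) with either filter. The pseudocount shrinks differences of low genes there. TMM factors of the counts were 0.938 to 0.947 in the early and 1.02 to 1.04 in the control libraries, and the FPKM values were used without them. The cause of the shift in direction was not tested. The median log2 fold change was -0.022 on counts, -0.072 on log2(FPKM + 1) and -0.11 on log2(FPKM + 0.1). Leaving out 1 library at a time gave 4355 to 4561 genes higher, 4558 to 4847 lower and 3101 to 3311 with a 2-fold difference. With the replicate number as a block, 4838 genes were higher, 5116 lower and 3225 differed 2-fold in the fit of all libraries, and 4649, 4960 and 2812 in that of the 6 compared. Same-numbered early and control libraries deviated from their group means with a correlation of 0.024, 0.012 and 0.040, so the numbers were not taken as pairs. Without the controls numbered 3 at every age, 5044 were higher and 5369 lower. Of 206 named genes 202 were called, 168 of them in every alternative that tested them, 34 were lost in at least 1, and 0 reversed. Depth limits genes with few counts, such as Hes5, Hes7 and Ttr, whose differences rest on a few reads.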

Other observations

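Several gene families were counted by symbol after their values had been seen, and the counts are descriptions. Over all tested genes, 29.5% were called higher and 31.7% lower, and 9.08% were called higher and 11.0% lower by 2-fold or more. Some members also belong to the lists of the report (Zscan4c, Zscan4d, Zscan4f, Cdh1, Cdh2, Cdh11, Col1a1, Col1a2, Col4a1, Col4a2 and Col18a1), so the Zscan4, cadherin and collagen counts in part repeat those lists.

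Of 17 measured Platr genes, long noncoding RNAs named for their association with pluripotency, 17 were called higher in the early libraries, 16 of them by 2-fold or more, with a median log2 fold change of 2.46. All 9 measured Zscan4 genes and pseudogenes were called higher, each by 2-fold or more (median 2.28), but these copies are nearly identical and reads may be split among them. Of 22 members of the Pcdhg cluster, variable first exons of protocadherins that share their last exons, 15 were called lower, 14 of them by 2-fold or more, and 1 higher (median -1.53). Among cadherin genes 9 of 15 were called lower, 7 by 2-fold or more (median -1.11), and among carbohydrate sulfotransferases (Chst) 7 of 9, 6 by 2-fold or more (median -1.19). Of 34 collagen genes, 18 were called lower, 16 of them by 2-fold or more, and 8 were called higher, 5 of them by 2-fold or more. Ribosomal protein genes and their paralogs (Rpl and Rps) had a median of 0.053, with 25 of 83 called higher and 6 lower. By 2-fold or more 3 of the 83 were called higher, the paralogs Rpl39l (4.59), Rpl10l (3.44) and Rpl3l (1.98), and 0 were called lower.

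Of 358 long intergenic noncoding RNAs, 27.1% were called higher and 14.8% lower by 2-fold or more. Of 293 genes annotated as antisense, 10.6% were called higher and 23.2% lower by 2-fold or more, and the strand setting of the counting is not given in the sources used here. Such calls were more frequent among low genes of any kind: they were 18.1% higher and 19.7% lower for genes under 1 CPM, and 14.4% higher and 20.4% lower for genes of 1 to 10 CPM. Spic, a transcription factor of the Ets family, had 85 counts in the early and 0 in the control libraries, which is at least 27.7-fold higher when the group total is set to 3 counts. Arsi, an arylsulfatase, had 0 counts in the early and 34 in the control libraries, at least 11.6-fold lower.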
